A study of Mus musculus with 6 samples.

Results

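The H19 and Igf2 locus on mouse chromosome 7 was examined for CTCF binding. The window ran from 50 kb beyond H19 to 50 kb beyond Igf2 (build mm9, chr7:149711434-149902721, 191 kb) and also held Ins2. Its members were the 8 joined CTCF regions that touched this window, of 57662 in the whole genome. By position, 2 lay on the enhancer side of H19, 2 in the control region 2 to 5 kb upstream of H19, and 4 on the Igf2 side. Position alone chose them among the joined regions, and no score was used. A joined region exists only where at least 1 library had a peak. Regions called with WT_CTCF only are thus members through the peaks of that genotype.

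H19 is a long non-coding RNA, Igf2 is the fetal growth factor insulin-like growth factor II, and Ins2 is an insulin gene. H19 and Igf2 are imprinted: H19 is expressed from the maternal and Igf2 from the paternal chromosome. Between them lies the imprinting control region, which is methylated on the paternal chromosome. On the unmethylated maternal chromosome CTCF binds this region and insulates Igf2 from enhancers that lie beyond H19. CpG methylation at these sites is known to prevent CTCF binding. Peak lists do not separate the parental chromosomes, so every value below is for both together.

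CTCF ChIP-seq, in which DNA crosslinked to CTCF is enriched with an antibody and sequenced, was performed in mouse embryonic stem cells grown with serum and the cytokine LIF. All cells came from a CTCF-mAID line, in which endogenous CTCF is tagged and was degraded with auxin. In its place they expressed an introduced wild-type CTCF (WT_CTCF) or a CTCF with 1 threonine changed to alanine, which cannot carry the sugar O-GlcNAc there (MUT_CTCF). There were 2 CTCF libraries per genotype, which the study calls biological replicates. Input DNA, sequenced in 2 further libraries, was not analysed here. The functional work used picked clones, chosen for a CTCF level near the endogenous one, so genotype and clone cannot be told apart.

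Peak lists numbered 49987 and 54001 peaks for WT_CTCF and 33939 and 32712 for MUT_CTCF, with a lowest score of 13 in each. The score of a peak comes from the peak caller, run on spike-in scaled tracks, and how it was defined was not stated. It is not a read count, and a difference in score need not have the direction of a difference in reads. The authors compared spike-in scaled read counts separately, and that comparison was not used here. A lower score or a missing peak below is therefore a statement on the peak lists and not on the amount of CTCF bound. The read depth is unknown here.

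On this build H19 lay at chr7:149761434-149764048, Igf2 at chr7:149836673-149852721 and Ins2 at chr7:149864561-149885415, all on the minus strand. Positions of regions are given below as kb from the H19 start, positive when upstream of H19 and so towards Igf2, and negative when beyond its 3′ end.

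The control region (chr7:149766048-149769048, 3001 bp) is where the CTCF sites of the insulator lie, so the sequences found there are shown first. Searched with the 12-base pattern CCNCNNGGNGGC on both strands of the reference, it held 4 matches, all on the strand of H19. They are printed 5′ to 3′ on that strand, with the match in capitals and 14 bases on either side.
Site 1, chr7:149766216-149766227: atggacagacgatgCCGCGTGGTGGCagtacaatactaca
Site 2, chr7:149766671-149766682: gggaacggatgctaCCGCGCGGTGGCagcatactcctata
Site 3, chr7:149767697-149767708: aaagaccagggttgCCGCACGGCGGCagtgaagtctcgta
Site 4, chr7:149767941-149767952: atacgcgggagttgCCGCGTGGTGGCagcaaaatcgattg

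Sites 1 and 4 were identical over the 12 bases, and the other pairs shared 9 to 11 of 12. The matches held 2, 3, 3 and 2 CpGs, the dinucleotides that carry the imprint. The sites formed 2 pairs, with 455 bp between the starts of sites 1 and 2 and 244 bp between those of sites 3 and 4. In the whole window the pattern occurred 17 times, 13 of them outside the control region, which was 8.89 per 100 kb against 4.73 per 100 kb over chromosome 7. Across the genome it was found in 24.4% of all CTCF regions and in 4.34% of intervals of equal width 5 kb away.

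CTCF peaks were called in the control region with WT_CTCF and in neither MUT_CTCF library. The larger of its regions, at +3.73 kb (chr7:149767590-149767969, 380 bp, intergenic), had a score of 68 in WT_CTCF replicate 1 and 151 in replicate 2. No peak was called there in MUT_CTCF replicate 1 or 2. The smaller region, at +2.73 kb (chr7:149766663-149766884, 222 bp), lay within 3 kb of the H19 start and was called in WT_CTCF replicate 2 only, with a score of 38. WT_CTCF replicate 1 and both MUT_CTCF libraries had no peak there. Thus the control region held 1 and 2 peaks in WT_CTCF and 0 and 0 in MUT_CTCF.

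**Figure D1:**
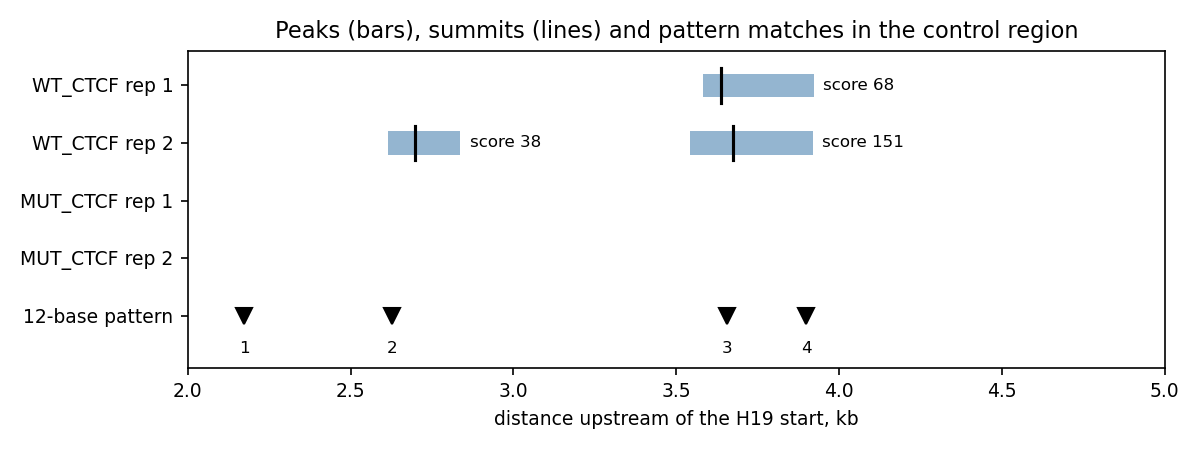
Peaks in the control region by distance upstream of the H19 start (horizontal axis, kb) in the 4 libraries (rows). Bars are peaks, black lines their summits and triangles the 4 pattern matches. WT_CTCF replicate 1 had 1 peak, WT_CTCF replicate 2 had 2, and neither MUT_CTCF library had any.

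The +3.73 kb region is printed from the plus strand of the reference for the stretch from near its first summit to its end (chr7:149767675-149767969, 295 bp), with sites 3 and 4 in capitals as their reverse complements.
Region at +3.73 kb: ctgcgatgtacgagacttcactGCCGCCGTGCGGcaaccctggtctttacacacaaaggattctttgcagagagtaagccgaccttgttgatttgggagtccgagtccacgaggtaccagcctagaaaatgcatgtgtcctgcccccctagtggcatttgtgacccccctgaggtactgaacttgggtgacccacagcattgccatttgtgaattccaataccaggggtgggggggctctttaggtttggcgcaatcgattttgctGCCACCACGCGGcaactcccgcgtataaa

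The summits of this region lay 16.5 bp from the centre of site 3 in WT_CTCF replicate 1 and 18.5 bp in replicate 2. Site 4, in the same region, was 260.5 and 225.5 bp from them. The summits of both libraries were thus nearer to site 3. Site 2 lay in the +2.73 kb region, 68.5 bp from its single summit. Site 1 lay in no called region. All 31-base words of the control region were unique in the genome (100%), and the authors had removed reads with several alignments.

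The absence from MUT_CTCF was set against other regions of the same score. Of all 57662 joined regions, 19.5% had a peak in each WT_CTCF library but in no MUT_CTCF library, and 52.6% were called in all 4. Among the members, 2 of 8 had the first pattern, at +3.73 and -45.1 kb, and 4 of 8 the second, at -40.1, +32.6, +94.2 and +137 kb. Genome-wide, 6212 regions had both WT_CTCF scores between 68 and 151, the range of the +3.73 kb region, and 66.4% of these were called in neither MUT_CTCF library. A further 12.3% of them were called in all 4. The pattern seen at +3.73 kb was therefore the commoner one among regions that scored as low with WT_CTCF. The +2.73 kb region, called in WT_CTCF replicate 2 alone, was 1 of 7374 regions with that pattern among the 57662. At this depth, which is unknown, the lists cannot show that CTCF was absent from the control region.

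Pooled over genotypes, the control region also had the lowest signal of the locus. The authors' mean of spike-in scaled read counts over the 4 libraries was 56.25 for the +3.73 kb region, at percentile 34.1 of all regions, and 23 for the +2.73 kb region, at percentile 8.20. Per kb of region these were 148 and 104 (percentiles 26.1 and 10.8). The other 6 members had pooled means from 87.75 to 316 and from 182 to 563 per kb. All 6 lay above both control regions on either scale. The median was 127 over the 8 members and 95.25 over all regions. These means pool both genotypes and were not split between them here.

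**Figure D2:**
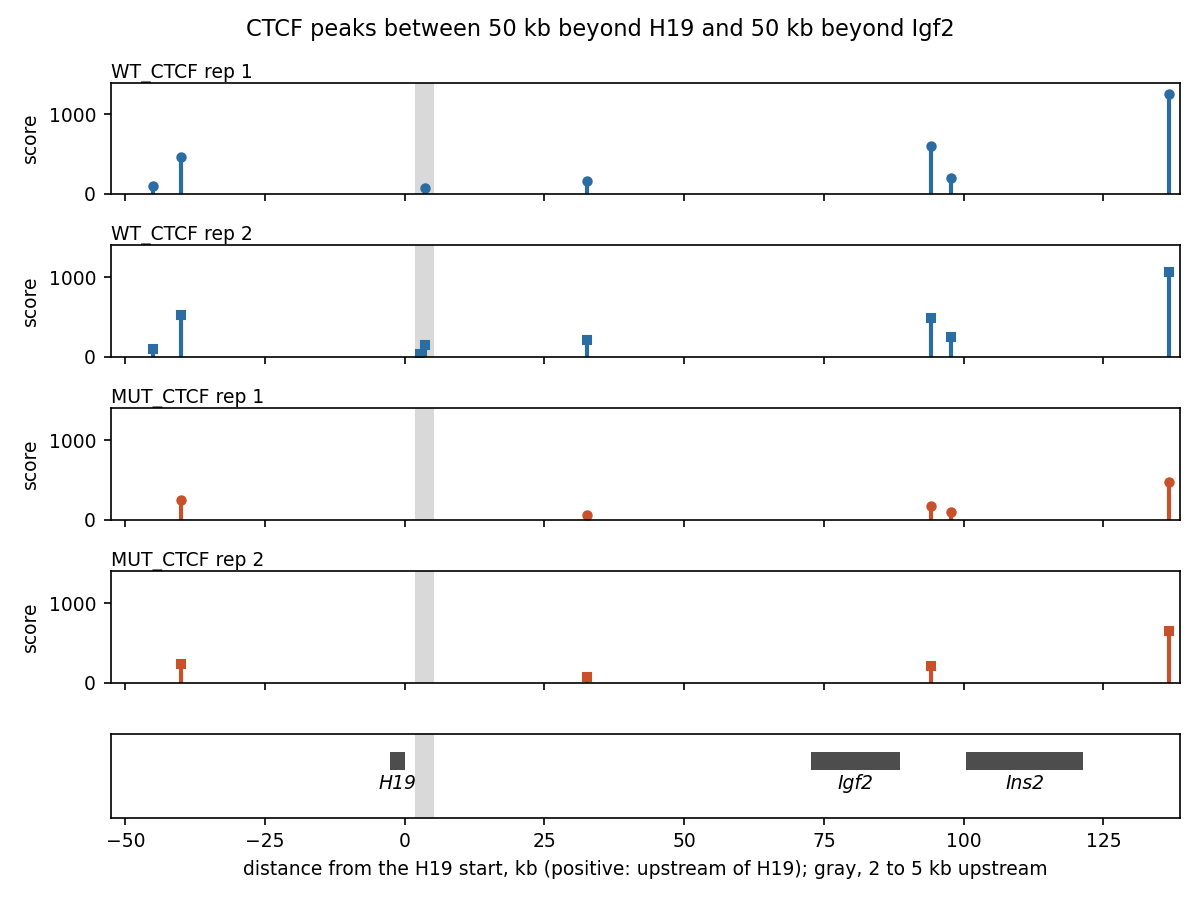
Peak score (vertical axis, linear) at each summit by distance from the H19 start (horizontal axis, kb, positive upstream) in the 4 libraries, with the bodies of H19, Igf2 and Ins2 below and the control region in gray. The control region holds peaks of WT_CTCF only, while the window's highest score in every library is at +137 kb.

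Over the whole window fewer peaks were called in MUT_CTCF. The libraries had 7 and 8 peaks in WT_CTCF and 5 and 4 in MUT_CTCF, or 7.5 ± 0.707 against 4.5 ± 0.707 (SD, n = 2 each). Peaks covered 2854 and 3202 bp of the window in WT_CTCF and 1640 and 1486 bp in MUT_CTCF, or 3028 ± 246 against 1563 ± 109 bp (SD, n = 2 each). Neither the numbers nor the covered lengths overlapped between genotypes. In the exact two-sided permutation test each gave p = 0.333, the smallest that 2 libraries against 2 allow, so significance could not be reached. Both differences run with the genome-wide lists, which were shorter in MUT_CTCF. As a share of each library's own peaks, the window held 0.0140% and 0.0148% in WT_CTCF and 0.0147% and 0.0122% in MUT_CTCF, which overlap. Its share of the bases covered by a library's peaks was 0.0129% and 0.0130% in WT_CTCF and 0.0125% and 0.0120% in MUT_CTCF, which do not overlap. The shares were not tested.

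By side, the enhancer side had 2 and 2 peaks with WT_CTCF and 1 and 1 with MUT_CTCF, and the Igf2 side had 4 and 4 against 4 and 3. Whether the sides differed was not tested.

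On the enhancer side, both regions lay in Mrpl23, which encodes a protein of the mitochondrial ribosome. The -45.1 kb region (chr7:149718834-149719130, 297 bp) covered its promoter and first exon, with coding sequence. Its score was 97 in WT_CTCF replicate 1 and 102 in replicate 2, and no peak was called in either MUT_CTCF library. The WT_CTCF scores stood at percentiles 22.6 and 25.9 of their libraries. By contrast its pooled mean of 167.25 was at percentile 66.7 of all regions and its mean per kb, 563, at percentile 93.3. It was also rich in CpG, with 31 CpGs, or 10.4 per 100 bp (percentile 99.6), and a G+C content of 70.4% (percentile 99.7). G+C content can change how efficiently DNA is amplified and sequenced, and its part in this result was not tested. The best match to the CTCF weight matrix was poor in this region, with a score of 5.66 at percentile 8.91 of all regions.

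The -40.1 kb region (chr7:149723669-149724229, 561 bp) lay on an exon of a further Mrpl23 transcript and was called in all 4 libraries. Its score was 459 and 527 in WT_CTCF and 250 and 237 in MUT_CTCF. The genotypes did not overlap, as in 96.2% of all regions called in all 4 libraries, where both MUT_CTCF scores were below both WT_CTCF scores. The MUT_CTCF mean was 0.494 of the WT_CTCF mean (493 ± 48.1 against 243.5 ± 9.19, SD, n = 2 each).

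On the Igf2 side, 3 of 4 regions were called in all 4 libraries. The +32.6 kb region (chr7:149796458-149796874, 417 bp, intergenic), the first beyond the control region, had scores of 157 and 205 in WT_CTCF and 57 and 76 in MUT_CTCF. Its MUT_CTCF mean was 0.367 of that in WT_CTCF, and it had the lowest scores of the regions called throughout. A gap of 61105 bp without any region followed, which held the whole of Igf2.

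The region nearest to the Igf2 start was at +94.2 kb (chr7:149857980-149858485, 506 bp, intergenic), 5.51 kb upstream of the gene. It had scores of 603 and 488 in WT_CTCF and 176 and 212 in MUT_CTCF. The ratio of means, 0.356, was the lowest among the regions called in all 4 libraries. A neighbour at +97.7 kb (chr7:149861509-149861990, 482 bp, intergenic), between Igf2 and Ins2, had scores of 203 and 245 in WT_CTCF and 97 in MUT_CTCF replicate 1, with no peak in MUT_CTCF replicate 2. No region lay within H19, Igf2 or Ins2 as annotated.

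The member with the highest score in every library was at +137 kb (chr7:149900408-149901038, 631 bp, intergenic), beyond Ins2 and nearest to its annotated start. Scores were 1255 and 1067 in WT_CTCF and 473 and 656 in MUT_CTCF. Its pooled mean of 316 was at percentile 87.1 of all regions. The ratio of means was 0.486, and the genotypes did not overlap.

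**Figure D3:**
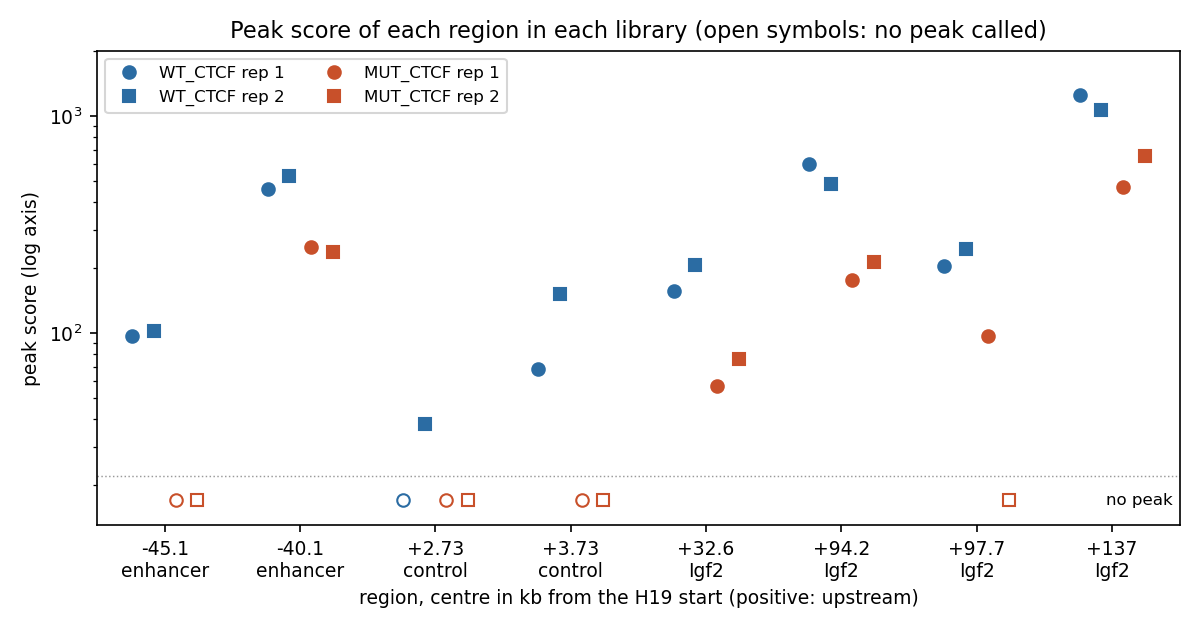
Peak score (vertical axis, log scale) of the 8 regions, ordered by position (horizontal axis, kb from the H19 start), in each library. Filled symbols are called peaks and open symbols below the dotted line mark libraries with no peak. In each of the 4 regions called throughout, both MUT_CTCF scores lie below both WT_CTCF scores, as in 96.2% of all such regions.

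The score differences were fitted with limma on the log2 scale over the 30317 regions called in all 4 libraries, MUT_CTCF minus WT_CTCF. All 4 members in the fit were called lower in score (limma adjusted p below 0.05). Over all regions fitted, 90.8% were called lower and 99.3% had a difference below 0. The members' count was thus near the background and is no result about the locus. These are differences in the peak caller's score and not in read counts. The log2 difference was -1.49 ± 0.25 (SE, limma adjusted p = 0.000277) at +94.2 kb and -1.45 ± 0.37 (SE, limma adjusted p = 0.00374) at +32.6 kb. At +137 kb it was -1.05 ± 0.19 (SE, limma adjusted p = 0.000503) and at -40.1 kb -1.01 ± 0.23 (SE, limma adjusted p = 0.00172). The median was -1.25 over these 4 and -1.18 over all regions (25th to 75th percentile, -1.52 to -0.88). Each of the 4 lay between percentiles 26.8 and 64.3 of the differences of all regions. Regions called in a single genotype, those of the control region included, had no score to compare and could not be fitted.

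**Figure D4:**
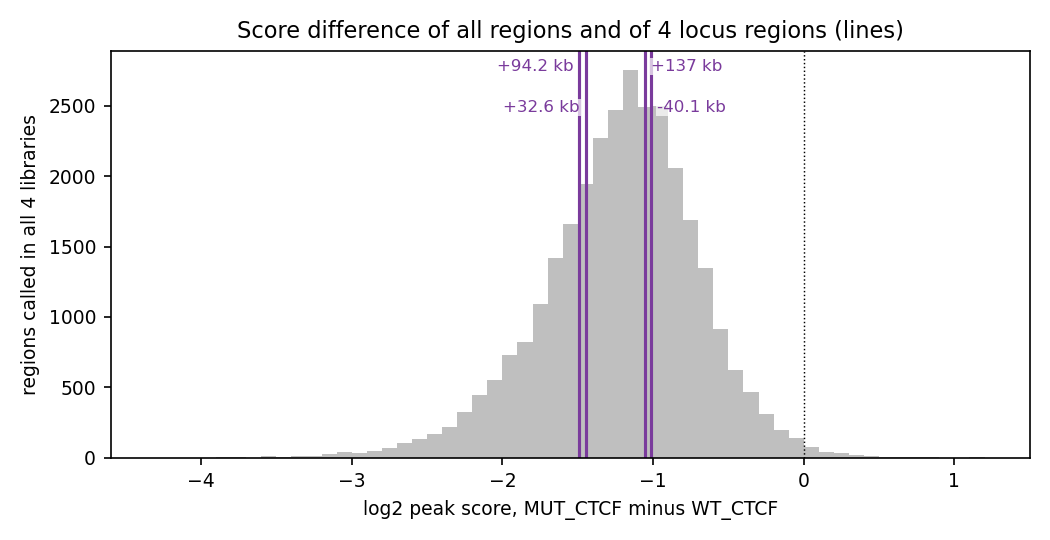
Number of regions called in all 4 libraries (vertical axis) by the log2 difference in peak score, MUT_CTCF minus WT_CTCF (horizontal axis), with lines for the 4 members labelled by position. The members lie from -1.49 to -1.01, around the median of all regions at -1.18.

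With log2 scores centred on each library's median, none of the members was called. The centred differences were -0.28 at +94.2 kb, -0.23 at +32.6 kb, 0.16 at +137 kb and 0.20 at -40.1 kb (limma adjusted p 0.497, 0.739, 0.580 and 0.631), and 0 of the 4 had an unadjusted p below 0.05. Over all regions 8.49% were then called lower and 10.9% called higher. Relative to the genome, a score change particular to a member was thus not detected with 2 libraries per genotype. Without WT_CTCF replicate 2 the uncentred fit called 0 of the 4 members and 0% of all regions, with 2 of the 4 at an unadjusted p below 0.05. Without WT_CTCF replicate 1 it called 1 of the 4 and 43.3% of all regions.

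The standing of each peak within its own library does not use the scale of the score. At +137 kb the score was at percentiles 91.3 and 86.4 of its libraries for WT_CTCF and 77.2 and 89.2 for MUT_CTCF, so the genotypes overlapped. At +94.2 kb it was at percentiles 70.7 and 65.2 in WT_CTCF and 39.9 and 45.8 in MUT_CTCF. At +32.6 kb the WT_CTCF percentiles were 35.0 and 44.6 and those of MUT_CTCF 7.83 and 12.8. At -40.1 kb they were 63.4 and 67.6 against 52.4 and 50.2. At these 3 regions the percentiles of both MUT_CTCF libraries were below those of WT_CTCF. The share of all regions with that order was not counted, so it is no result about these 3. The MUT_CTCF lists are shorter, and by construction a list that lacks its lowest peaks puts the remaining ones at lower percentiles. Of regions with both WT_CTCF scores between 68 and 151, 66.4% were called in neither MUT_CTCF library. Of all joined regions, 19.5% had a peak in each WT_CTCF library and none in MUT_CTCF. Whether this lowered the percentiles was not tested, and the lowest score was 13 in every library. Ranks counted from the top of each list gave another order. At -40.1 kb the peak ranked 18303 and 17506 in WT_CTCF and 15684 and 15642 in MUT_CTCF, nearer to the top with MUT_CTCF. At +94.2 kb the ranks were 14455 and 18480 against 19821 and 17145, and at +32.6 kb 32452 and 29910 against 30323 and 27479, so the genotypes overlapped at both. Standing within a list therefore gave no common direction for these regions. The share of all regions with each order of ranks was not counted either.

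**Figure D5:**
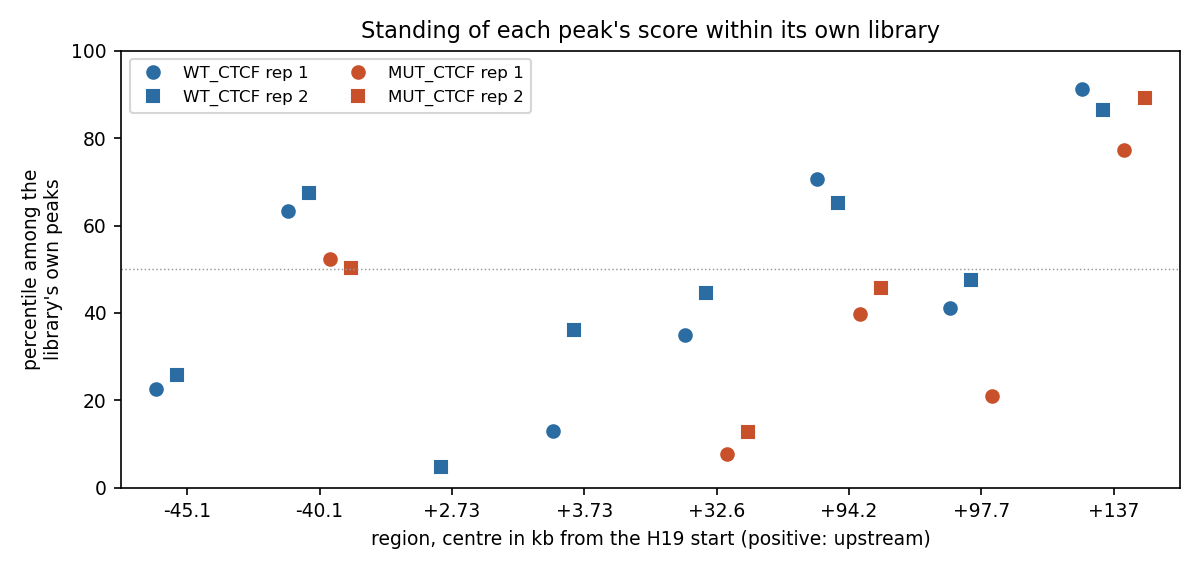
Percentile of each peak's score among all peaks of its own library (vertical axis) for the 8 regions by position (horizontal axis, kb from the H19 start). The control region's peaks, at +2.73 and +3.73 kb, stand at percentiles from 4.73 to 36.1, and the +137 kb peak at percentiles from 77.2 to 91.3.

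Peak width was compared by the same fit. Over all regions 49.7% were called narrower in MUT_CTCF (limma adjusted p below 0.05), and the median log2 width difference was -0.46. The +32.6 kb peak spanned 382 and 409 bp in WT_CTCF and 207 and 230 bp in MUT_CTCF, a log2 difference of -0.86 ± 0.20 (SE, limma adjusted p = 0.0177). The -40.1 kb peak spanned 535 and 487 bp against 330 and 355 bp (log2 difference -0.58 ± 0.15, SE, limma adjusted p = 0.0238). Both were narrower in MUT_CTCF. The +94.2 kb peak (506 and 412 against 302 and 362 bp, limma adjusted p = 0.0725) and the +137 kb peak (611 and 530 against 572 and 539 bp, limma adjusted p = 0.800) did not pass the threshold.

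Summits of both genotypes lay close together where both had a peak. The 4 summits spanned 13 bp at +32.6 kb, 13 bp at +94.2 kb, 18 bp at +137 kb and 34 bp at -40.1 kb, and the 3 at +97.7 kb spanned 36 bp. At -40.1 kb the MUT_CTCF summits alone spanned 34 bp and the WT_CTCF summits 13 bp, so the spread was as wide between replicates as between genotypes.

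To see which sequence lay under these summits, a CTCF weight matrix of 20 bases was built from summits outside chromosome 7. Its commonest letters were NNNGCCAGNAGAGGGCGNNA. At a threshold set at the 99th percentile of control intervals, 20.6% of all regions and 0 of the 8 members had a match. At a looser one, the 95th percentile, set after that result, 63.2% of all regions and 2 of the 8 members passed, those at -40.1 and +97.7 kb. The best match of the members whose summits lie nearest to one is printed 5′ to 3′ on its own strand in capitals, with 10 bases on either side.
Region at -40.1 kb, plus strand, chr7:149724003-149724022: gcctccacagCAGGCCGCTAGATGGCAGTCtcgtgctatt
Region at +32.6 kb, plus strand, chr7:149796654-149796673: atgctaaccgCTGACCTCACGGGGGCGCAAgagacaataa
Region at +94.2 kb, minus strand, chr7:149858227-149858246: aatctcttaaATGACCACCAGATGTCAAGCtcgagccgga
Region at +97.7 kb, minus strand, chr7:149861759-149861778: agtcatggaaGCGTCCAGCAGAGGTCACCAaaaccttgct
Region at +137 kb, minus strand, chr7:149900766-149900785: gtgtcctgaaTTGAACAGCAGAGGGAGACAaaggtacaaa

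The best matches on the Igf2 side lay close to the summits. The distance between summit and match centre was 0.5 to 12.5 bp at +32.6 kb, 0.5 to 18.5 bp at +137 kb, 8.5 to 21.5 bp at +94.2 kb and 9.5 to 26.5 bp at +97.7 kb. At -40.1 kb it was 7.5 to 41.5 bp. At +32.6, +94.2 and +137 kb the best match was below both thresholds, and 7.30%, 9.55% and 5.40% of control intervals scored higher. The best matches were on the plus strand at -40.1 and +32.6 kb and on the minus strand at +94.2, +97.7 and +137 kb, as were the 4 pattern sites of the control region. Their scores ranged from 10.6 to 18.8, at percentiles 19.2 to 59.6 of all regions. The 4 control region sites scored lower, from 5.44 to 9.60, at percentiles 8.64 to 16.6. Site 3, the one nearest to the summits, had the lowest of these scores. A score describes likeness to this matrix and is not a measure of binding.

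At each end of the window the nearest region outside differed from the nearest member in score and in call pattern. The next region beyond the enhancer side (chr7:149708259-149708715), 2719 bp outside, had scores of 244 and 302 in WT_CTCF and 86 and 96 in MUT_CTCF. On the Igf2 side the next (chr7:149906572-149907196), 3851 bp outside, had 520 and 424 in WT_CTCF, 200 in MUT_CTCF replicate 1 and no peak in MUT_CTCF replicate 2. The members nearest to the edges were those at -45.1 kb, 7400 bp inside, and at +137 kb, 1683 bp inside.

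As context, regions within 3 kb of a start of 25 other imprinted genes were counted. The annotation held 23 of them, and 13 had a region, 21 regions in all. Of these 21, 7 (33.3%) had peaks with WT_CTCF in both replicates and none with MUT_CTCF, and 8 (38.1%) were called in all 4, against 19.5% and 52.6% of all regions. The median pooled mean of the 21 was 81, against 95.25 over all regions. These shares were not matched for score, and whether the 21 regions differ from others was not tested. In the fit the 8 had a median log2 difference of -1.27. All 8 differences were below 0, and 7 of the 8 were called lower (limma adjusted p below 0.05), against 90.8% of all regions. The highest pooled mean was at Peg3, with 1185.75, and next at Grb10, with 700.5. At Gnas, an imprinted gene for a G protein subunit, 2 of 2 regions were called in WT_CTCF alone, whereas at Meg3, a maternally expressed non-coding RNA, 2 of 2 were called in all 4 libraries. Gnas and Meg3 were picked from the 13 genes with a region, and their highest pooled means were 90.75 and 301.5. At Peg3, Grb10 and Inpp5f, 1 of 2 regions had the first pattern and 1 the second.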

How the data were processed

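CTCF ChIP-seq peak lists of 4 libraries, 2 WT_CTCF and 2 MUT_CTCF, were used, grouped by sample titles. Per the methods, the authors used Trim Galore for trimming and Bowtie2 for alignment to mm9, removed duplicates and reads with several alignments, and scaled tracks by a Drosophila spike-in before calling peaks per library with MACS2 subcommands. The deposited lists give each peak's score and summit offset; the score's definition, the cutoff and the use of input are not given in the sources used here. The deposited table of joined regions gives the authors' mean spike-in scaled count signal over the 4 libraries, pooled, with no SD. Its 5 columns from the authors' DESeq2 comparison (log2 fold change, standard error, statistic, p-value, adjusted p) were not used. The number of per-sample columns left unused was 0. Depth is unknown, so no counting interval is given.

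A library called a region when its peak overlapped it by 1 bp or more; all 57662 joined regions were identical to the merged lists. Genes came from GENCODE vM1 on NCBIM37, the assembly of mm9. Log2 scores and widths were fitted across all regions called in all 4 libraries with limma 3.58.1 (trend, Benjamini-Hochberg adjustment over all regions, threshold 0.05, R 4.3.3), after tests on simulated data. The limma p-values rest on the spread between 2 libraries per genotype. Limma moderates this spread towards that of the other regions fitted with a similar mean. Counts were compared with exact permutation tests. All regions of the window are members and were described one by one or by range; a list of 25 imprinted genes gave context. Percentiles are the share of regions, or of peaks of a library, with a lower value. The weight matrix was refined in 8 rounds from the 12-base pattern over 28369 summits outside chromosome 7; control intervals lay 5 kb to either side. The sites of the control region are matches to the pattern itself, and this and the looser threshold were chosen after seeing the data. Members, pattern and lists were chosen with earlier results of these data known. Alternatives were stricter scores, reciprocal overlap of 50%, other filters, a 20 kb window, centring, a replicate block and leaving out each library. Python 3.11.15, numpy 2.4.6, pandas 2.3.3 and matplotlib 3.10.9 were used.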

Additional observations from a re-analysis of the deposited data

How the results depend on the processing

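There were 42 alternatives for 5 results, and 0 reversed. The 14 for peak numbers and covered bases kept their direction, and p could not pass the threshold in any of them. Of the other 28, 21 stayed within 1.5 times a count or, for the median difference, within 0.22 of its main value, and 7 moved. This 0.22 is the SD of log2 scores between replicates, pooled over the members called in all 4 libraries. The difference of -3 peaks ranged from -3.5 to -2.5 when each library was left out, and that of -1465 bp from -1639 to -1291 bp. Both shrank to -1.5 peaks and -820 bp when a score of at least the pooled median was required, and to -2 peaks and -1050.5 bp in the 20 kb window. In a replicate block these differences stayed at -3 and -1465 with p = 0.5 (exact sign-flip test, the smallest p for 2 pairs), and the 4 members in the limma fit stayed called. Replicate 1 minus replicate 2 deviations of the 2 genotypes had a correlation of -0.0033 over the 30317 regions, and the libraries were therefore not treated as paired. The 2 members called in both WT_CTCF and neither MUT_CTCF library became 1 when a score of at least 250, the pooled median, was required, then the +94.2 kb region, and 1 in the 20 kb window, which leaves out -45.1 kb; leaving out each library gave 2 to 3. The 4 members with a lower score became 0 after centring, with a median of -0.039 in place of -1.25, 1 with scores at or above the median, where only +137 kb was fitted, and 0 to 4 without one library; there the median ranged from -1.46 to -1.15. The low counts were without WT_CTCF replicate 1 (1) and replicate 2 (0). With 1 library in a group, it is assumed to vary like the other group. Fits without a library rest on 3 samples, and why the WT_CTCF libraries mattered more was not tested. Under the filter of at least 1 library per genotype, +97.7 kb was fitted too and fell (-1.20, limma adjusted p = 0.0265). The score difference of the control region could not be estimated under any setting, because no MUT_CTCF library had a peak there. The unknown depth and the unstated cutoff limit each call of no peak.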
